A study of Mus musculus with 41 samples.

Results

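Germinal center (GC) B cells of wild-type (wt) mice were compared with wt Follicular B cells, both sorted from spleen, by bulk RNA sequencing. The comparison rests on 8 of the 41 libraries of the series: 4 labelled wt GC and 4 labelled wt Follicular, taken by those labels. GC cells were gated as B220+CD93-CD138-GL7+FAS+ and Follicular cells as B220+CD93-CD138-GL7-FAS-CD21+CD23+, from mice aged 3 to 5 months. No immunisation is named in the labels. Polyadenylated RNA was made into libraries, and the numbers in the library names point to 8 separate animals, so that subset and animal cannot be told apart. The GC libraries came from animals 358, 413, 487 and 565 (GC_wt replicates 1 to 4) and the Follicular ones from animals 412, 562, 670 and 671 (Follicular_wt replicates 1 to 4). GC_wt replicate 4 is titled wt, but its library name reads Mek1ff, and the Immature library of the same animal is labelled 1Mek2. A separate set of 4 GC and 4 Follicular libraries carries the genotype label 1Mek2 (Mek1flox/flox Mek2+/- Tg+/Vav1-icre in the study design, a Cre transgene active in blood cells), and the label wt names no allele. Values are given below in replicate order, and GC and Follicular without a genotype mean the wt libraries.

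Germinal centers form when B cells that have met antigen proliferate in the follicles of spleen and lymph nodes. In their dark zone the cells divide and mutate their antibody genes, and in their light zone cells compete for antigen and T cell help. Resting follicular B cells recirculate, do not divide and carry IgM and IgD. In bulk samples a lower level cannot be told apart from fewer cells with the RNA.

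Total gene-span counts were 25326853, 25161124, 15855375 and 15684426 in the GC libraries, against 25201826, 27531930, 30920758 and 33450184 in the Follicular libraries. Gene-span counts include reads on introns, and exon reads were recovered from the deposited TPM values as a second measure. Values below are from gene-span counts unless exons or heavy-chain shares are named. Long genes differed between these measures. Among the 3128 tested genes with the longest spans the median log2 fold change was 0.94 in gene-span counts and 0.095 in exon reads. These genes held 1177 of the 2279 genes called higher in GC. Genes of long neuronal loci, which B cells are not known to use, summed to 2145, 353, 91.2 and 2448 CPM in GC, against 52.9, 86.4, 70.4 and 30.2 CPM in Follicular libraries, and their part in the results was not tested. Follicular_wt replicate 4 stood apart from the other Follicular libraries on many genes, and values without it, or against it alone, stand beside several of the list counts. Follicular_wt replicate 2 came from a male animal by its reads of the Y-linked gene Ddx3y (90.2 CPM, at most 0.800 CPM in the other 7 libraries). Map2k1 (Mek1), the floxed gene, averaged 191 ± 38.1 CPM in GC_1Mek2 and 213 ± 47.4 CPM in GC_wt libraries (SD, n = 4 each), but counts over a whole gene do not isolate a floxed exon. These means were scaled in a separate fit for each genotype, so they are not on a common scale.

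All 3 germinal center markers were higher in GC libraries. S1pr2, a sphingosine 1-phosphate receptor that holds cells in the germinal center (chromosome 9, 20877248 to 20888089 on GRCm39), had 162, 192, 247 and 292 CPM in GC, against 1.30, 0.956, 1.13 and 1.26 CPM in Follicular libraries (CPM is the count scaled to library size; log2 fold change 7.58 ± 0.39, adjusted p = 1.76e-07). Gcsam, a germinal center signalling adaptor (chromosome 16, 45430803 to 45443230), had 491, 333, 679 and 547 CPM in GC, against 0.0842, 0.0382, 0.200 and 0 CPM in Follicular libraries (log2 fold change 12.55 ± 0.71, adjusted p = 2.86e-07; the Follicular values rest on 9 reads in all). Mybl1, which encodes the transcription factor A-MYB (chromosome 1, 9737632 to 9770664), had 426, 586, 538 and 267 CPM in GC, against 1.30, 2.06, 2.203 and 0.377 CPM in Follicular libraries (log2 fold change 8.25 ± 0.61, adjusted p = 1.79e-06). All 3 markers were separated between the groups with no overlap of libraries. Of the genes behind the gates, Fas, a death receptor and part of the GC gate, had 242, 234, 411 and 217 CPM in GC, against 5.13, 5.32, 6.71 and 10.8 CPM in Follicular libraries, which the sort fixes and which is no finding. Fcer2a (CD23) had 104, 189, 137 and 48.0 CPM in GC, against 445, 326, 362 and 1171 CPM in Follicular libraries. Cr2 (CD21) had 336, 387, 372 and 93.1 CPM in GC, against 1015, 665, 694 and 575 CPM in Follicular libraries. Both were used to sort Follicular cells. Sdc1, the gene of the plasma cell marker CD138, was low in both, with 1.58, 0.305, 0.0685 and 1.36 CPM in GC, against 1.98, 1.19, 2.34 and 9.61 CPM in Follicular libraries.

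Across all genes, 3923 of 15638 passed the test in gene-span counts (edgeR quasi-likelihood, Benjamini-Hochberg adjusted p below 0.05), 2279 higher and 1644 lower in GC. This is a background of 25.1% called, 14.6% higher and 10.5% lower, beside which the gene-span list counts below are to be read. The 4 GC and 4 Follicular libraries did not overlap in 4059 genes (26.0%). In exon reads 2573 of 14045 passed, 1371 higher and 1202 lower, a background of 18.3%. Both measures called 1944 genes in the same direction and 0 in opposite directions, and 1142 of the genes called higher in gene-span counts had too few exon reads to test. In 1545 genes, 12.6% of the 12308 tested in both, the calls agreed in direction and the 4 GC and 4 Follicular libraries did not overlap in either measure; 844 of these were higher in GC and 701 lower. Without Follicular_wt replicate 4 the gene-span test called 7024 of 18200 genes, 4436 higher and 2588 lower. The exon test then called 4793 of 14915, 2783 higher and 2010 lower. Without GC_wt replicate 3 the gene-span test called 6373 of 18212. Leaving out 1 library gave 3052 to 7024 gene-span calls and 1610 to 4793 exon calls, and the list counts below without 1 library are to be read beside these. Without GC_wt replicate 4, the library named Mek1ff, the gene-span test called 3208, and 1439 of the 1545 genes kept their call. All 1545 kept their direction, which follows largely from the rule that their libraries do not overlap. Of the 157 called genes named here, all but Hk2, Icam1 and Zbtb20 passed without Follicular_wt replicate 4, and all but 8 did without GC_wt replicate 4. Set against Follicular_wt replicate 4 alone, 3875 of the 3923 genes kept their direction and 48 turned. Of the 1545 genes 1544 kept it and 1 turned. These 1545 were chosen with that library apart from every GC library, so their direction adds no support. That fit holds 1 Follicular library, so for the lists below it gives medians and no calls. The median over all 26512 genes it tested was 1.46. 

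**Figure D1:**
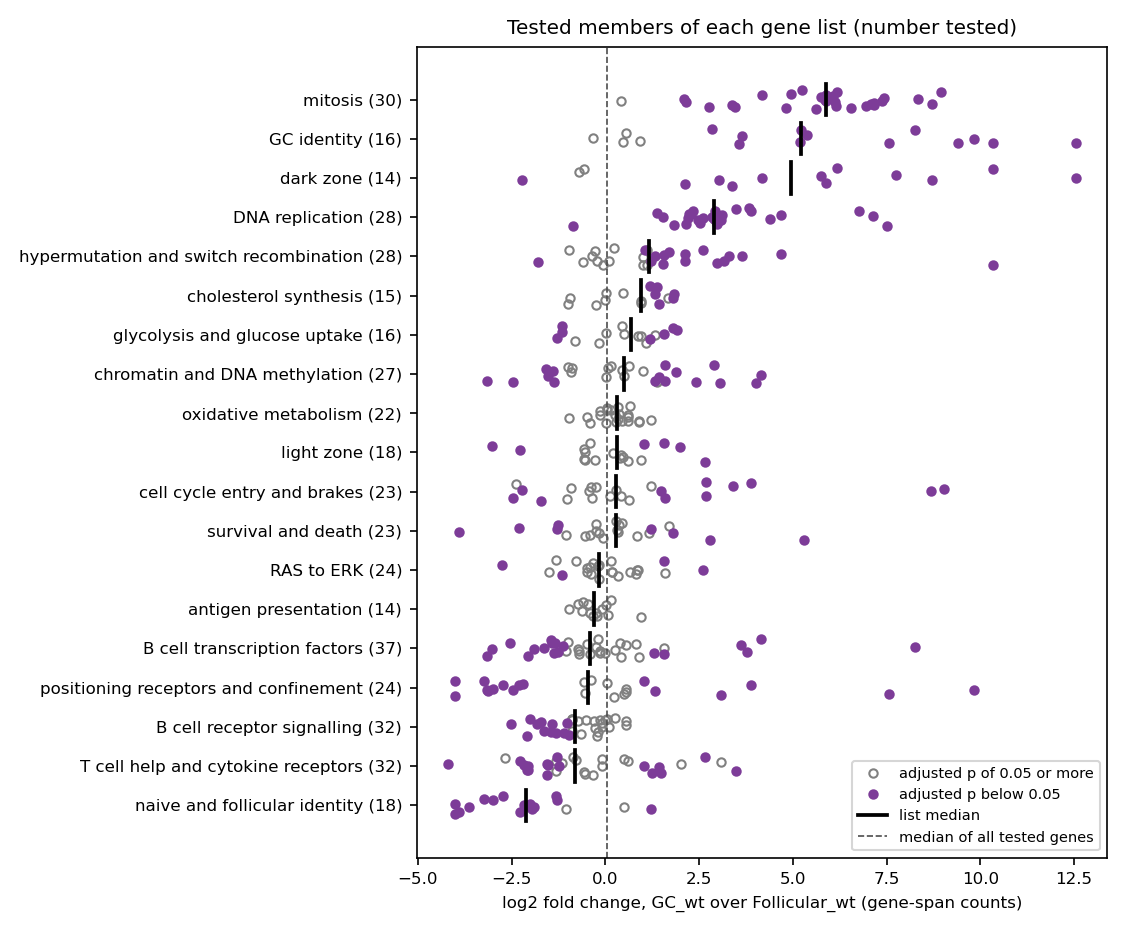
Each point is a tested gene of the list named at the left, placed by its log2 fold change (GC_wt over Follicular_wt, gene-span counts, 4 against 4 libraries). Filled points had an adjusted p below 0.05, black bars are list medians and the dashed line is the median of all tested genes. The mitosis list has the highest median, 5.88, and the naive and follicular identity list the lowest, -2.12.

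The GC identity list (17 genes) was higher in GC cells. Of its 16 tested members 12 rose and 0 fell, with a median log2 fold change of 5.21, beside 0.041 for all tested genes. Rgs13, a brake on chemokine receptor signalling, had 710.4, 536, 1104 and 398 CPM in GC, against 0.0842, 0.382, 0.968 and 1.51 CPM in Follicular libraries (log2 fold change 9.83 ± 0.79, adjusted p = 3.72e-06). Nuggc, a nuclear GTPase of germinal center cells, had 197, 248, 244 and 146 CPM in GC, against 0.0421, 0.115, 0.1001 and 0.911 CPM in Follicular libraries (log2 fold change 9.40 ± 0.80, adjusted p = 5.77e-06). For both genes every GC library lay more than 100 CPM above every Follicular library. Smaller rises passed for Eaf2, an elongation-associated factor (5.39 ± 0.43), Basp1 (5.19 ± 0.55), Plxnb2, a semaphorin receptor (5.23 ± 0.40), Neil1, a DNA glycosylase (3.65 ± 0.34), and Efnb1, an ephrin that shapes contacts with T cells (3.56 ± 0.47). Mef2b, a factor upstream of Bcl6 that was at 0 in the gene-span table, had 38.9, 27.6, 41.4 and 28.0 exon CPM in GC, against 1.09, 0.834, 0.682 and 0.0682 exon CPM in Follicular libraries (5.68 ± 0.75, adjusted p = 2.10e-04). Bcl6, the repressor that germinal center cells depend on, was not called. It had 423, 462, 417 and 268 CPM in GC, against 387, 333, 293 and 56.4 CPM in Follicular libraries (log2 fold change 0.55 ± 0.47, adjusted p = 0.425). Only the low value of Follicular_wt replicate 4 lay clear of the GC range. Lmo2 and Cd24a were not called either, with differences of 0.47 ± 0.43 and 0.93 ± 0.39. Cd24a passed without GC_wt replicate 1 (log2 fold change 1.16, adjusted p = 0.0460). 

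**Figure D2:**
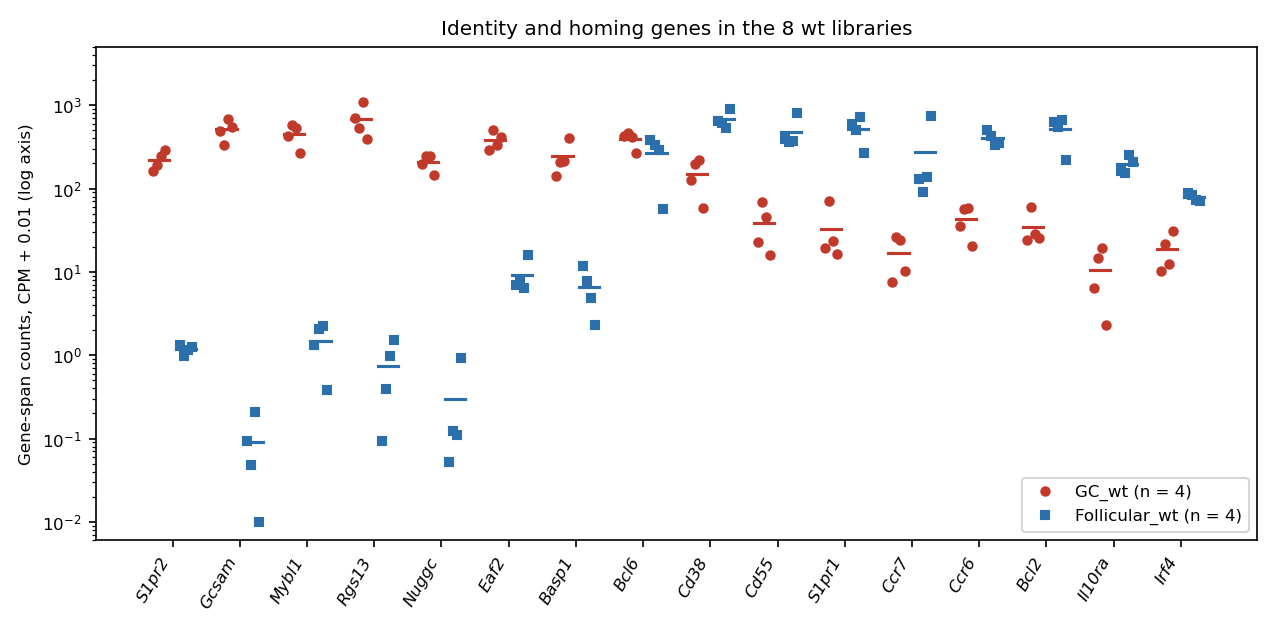
CPM (gene-span counts plus 0.01, log axis) of 16 genes in each library; red circles are the 4 GC_wt and blue squares the 4 Follicular_wt libraries, bars are group means. The first 7 genes sit above 100 CPM in every GC library and below 20 CPM in every Follicular library, Bcl6 overlaps, and the last 8 are higher in every Follicular library.

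The largest rises that passed in both measures without overlap, at a mean of at least 5 CPM, were of 3 kinds. Gcsam, Rgs13 and Nuggc belong to the identity list above. Genes of the cell cycle and division were Kif2c, a microtubule depolymerase (8.96 ± 0.60), Bub1, a spindle checkpoint kinase (8.95 ± 0.49), Cenpf, a kinetochore protein (8.71 ± 0.81), Ska1, a kinetochore protein (8.64 ± 0.99), Pif1, a DNA helicase (8.63 ± 0.89), Mki67 (8.33 ± 0.57), and the atypical E2F repressors E2f8 (9.02 ± 0.96) and E2f7 (8.70 ± 0.85). The remaining 3 rest on very few Follicular reads. Nrep, a small neuronal regeneration-related protein, had 115, 31.8, 47.3 and 52.5 CPM in GC, against 0, 0, 0.0334 and 0 CPM in Follicular libraries. Its 5635 GC reads against 1 Follicular read give a ratio of 7347 (95% Clopper-Pearson interval 1318 to 290254, counting error only). Emp2, a membrane protein of the PMP22 family, had 36.2, 13.1, 12.3 and 39.4 CPM in GC, against 0, 0.0382, 0 and 0.0314 CPM in Follicular libraries. The ratio of its counts was 1436 (397 to 11861). H1f10, a linker histone, had 0.394, 4.31, 17.1 and 70.0 CPM in GC, against 0, 0.0382, 0 and 0 CPM in Follicular libraries. The GC libraries thus differed widely among themselves (ratio 2035, 365 to 80442).

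Among the 15 largest falls by the same rule were genes of metabolism, signalling and transcription. Pdk2, a kinase that restrains pyruvate oxidation, had 0.358, 0, 0 and 0.0590 CPM in GC, against 8.501, 13.5, 10.05 and 13.6 CPM in Follicular libraries (log2 fold change -6.59 ± 1.18, adjusted p = 0.00160). Khk, ketohexokinase of fructose breakdown, had 1.68, 0.0763, 0.137 and 0.531 CPM in GC, against 25.3, 29.2, 25.7 and 19.2 CPM in Follicular libraries (log2 fold change -5.31 ± 0.89, adjusted p = 0.00110). Pex11g, a peroxisome protein, fell by 4.61 on the log2 scale. Dok2, an adaptor that dampens tyrosine kinase signalling, was the most abundant of the 15, with 3.08, 13.7, 16.8 and 12.3 CPM in GC, against 369, 303, 227 and 103 CPM in Follicular libraries (log2 fold change -4.45 ± 0.56, adjusted p = 1.27e-04). Lfng, a glycosyltransferase that modifies Notch receptors, had 0.824, 0.458, 3.77 and 2.30 CPM in GC, against 68.7, 72.0, 68.1 and 16.4 CPM in Follicular libraries (log2 fold change -4.96 ± 0.72, adjusted p = 4.03e-04). Mib2, a ubiquitin ligase of Notch ligands, differed by -4.50 ± 0.90. Ski (-4.72 ± 0.67) is a transcriptional corepressor, and Dusp7 (-4.29 ± 0.89) is a phosphatase of ERK. Irf2bpl (-4.70 ± 0.78), Crip3 (-6.09 ± 0.87), Wfdc17 (-5.24 ± 1.00), Zcchc24 (-4.62 ± 0.71), Rflnb (-4.38 ± 0.57) and Crb3 (-4.38 ± 1.15) completed the list with Cd55os (-5.30 ± 1.14), a transcript antisense to Cd55 whose reads cannot be told apart from those of Cd55 where counting used no strand. Follicular_wt replicate 4 had the lowest Follicular value in most of these genes, above every GC library in all 15 by the rule.

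**Figure D3:**
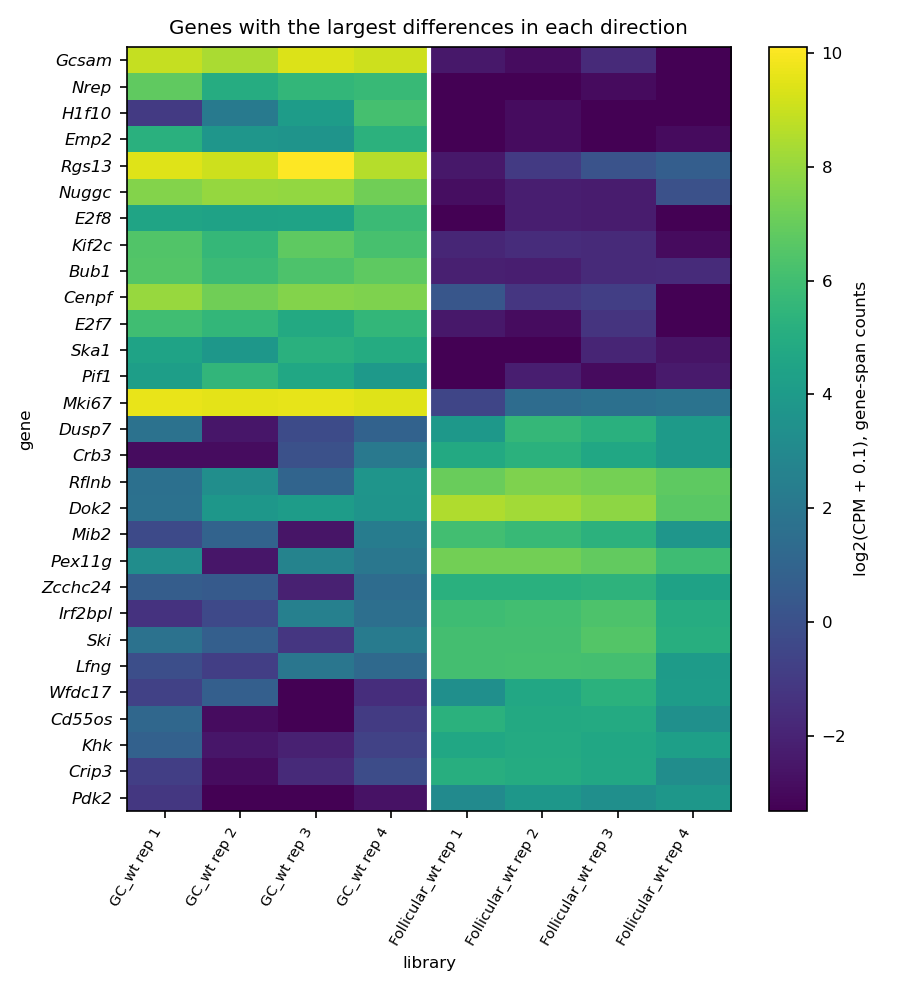
Colour gives log2(CPM + 0.1) of 29 genes with the largest differences by the naming rule (rows, ordered by log2 fold change) in the 4 GC_wt libraries (left) and the 4 Follicular_wt libraries (right of the white line). The upper 14 rows are at most 3.33 CPM in the Follicular libraries, and H1f10 is low in GC_wt replicate 1; the lower 15 rows are at most 16.8 CPM in the GC libraries.

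Genes of resting and recirculating B cells were lower in GC cells. In the naive and follicular identity list 15 of 18 tested members fell and 1 rose (median -2.12). In exon reads it was 13 and 1 of 19, and 12 fell in both measures without overlap (background 5.7%). The list holds Cr2 and Fcer2a, used to sort Follicular cells, and Cmah, tied to the GL7 gate, so the sort bears on part of these counts. Cd38, a NAD-consuming surface enzyme, had 126, 196, 223 and 58.7 CPM in GC, against 647, 615, 538 and 901 CPM in Follicular libraries (log2 fold change -2.16 ± 0.41, adjusted p = 0.00230). Cd55, which protects cells from complement, had 22.9, 69.7, 46.2 and 16.1 CPM in GC, against 396, 358, 368 and 814 CPM in Follicular libraries (log2 fold change -3.64 ± 0.504, adjusted p = 2.87e-04). Cmah, whose loss of expression creates the GL7 epitope on which the sort rested, had 170.3, 308, 178 and 139 CPM in GC, against 852, 765, 852 and 616 CPM in Follicular libraries (log2 fold change -1.96 ± 0.34, adjusted p = 0.00130). None of these groups overlapped, and GC_wt replicate 4 was the lowest of the 8 for each. Foxp1, a forkhead factor of resting B cells, fell by less in exon reads (-1.91 ± 0.35 in gene-span counts, -1.06 in exon reads). Zbtb20 was the member that rose, with 2058, 2019, 1135 and 1058 CPM in GC, against 789.7, 724, 853 and 352 CPM in Follicular libraries (log2 fold change 1.21 ± 0.38, adjusted p = 0.0322; 2.81 in exon reads). Zbtb20 was not called without GC_wt replicate 1 or 2 or Follicular_wt replicate 1, 2, 3 or 4 (adjusted p up to 0.118). Cr2 lost its call without GC_wt replicate 1 or Follicular_wt replicate 1 (adjusted p up to 0.0819). Bank1 and Btla fell in gene-span counts but were not called in exon reads (adjusted p = 0.0540 and 0.104). Rises in this list numbered 0 without GC_wt replicate 1 or 2 or Follicular_wt replicate 1, 2 or 3. Exon rises numbered 2 without Follicular_wt replicate 4.

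Several receptors that guide B cells out of the follicle and through lymphoid tissue fell in GC cells, while S1pr2, the confinement receptor above, rose. In the positioning list 6 rose and 10 fell among 24 tested members, with 7 and 11 of 25 in exon reads. S1pr1, the receptor for exit into blood (chromosome 3, 115504082 to 115508704), had 19.2, 71.0, 23.5 and 16.6 CPM in GC, against 596, 508, 714 and 269 CPM in Follicular libraries (log2 fold change -4.0 ± 0.53, adjusted p = 2.12e-04). S1pr4, of the same family, had 5.41, 21.0, 11.6 and 18.5 CPM in GC, against 135, 157, 109 and 103 CPM in Follicular libraries (log2 fold change -3.16 ± 0.43, adjusted p = 2.40e-04). Both receptors were lower in every GC library, in GC_wt replicate 2 least so. Ccr7, the receptor for T zone chemokines, had 7.48, 26.3, 24.2 and 10.3 CPM in GC, against 129, 90.1, 136 and 748 CPM in Follicular libraries (log2 fold change -4.01 ± 0.71, adjusted p = 0.00148), where Follicular_wt replicate 4 was far above the other Follicular libraries. Ccr6 (-3.24 ± 0.39), the lysophosphatidylserine receptors Gpr174 (-3.14 ± 0.37) and P2ry10 (-2.196 ± 0.43), the integrin chains Itgb7 (-3.001 ± 0.35) and Itga4 (-2.31 ± 0.36) all fell without overlap. Icam1 was not called without GC_wt replicate 1, 2 or 3 or Follicular_wt replicate 1, 2, 3 or 4 (adjusted p up to 0.160). Gpr183 (EBI2), which draws cells to the follicle's edge and is counted on exons only, had 31.9, 48.9, 40.1 and 51.6 exon CPM in GC, against 206, 203, 255 and 486 exon CPM in Follicular libraries (-2.74 ± 0.38, adjusted p = 2.90e-04). Of the regulators of G protein signalling, Rgs2 (3.08 ± 0.52) and Rgs10 (3.90 ± 0.69) rose with Rgs13, and the adhesion genes Cd44 (1.32 ± 0.29) and Icam1 (1.04 ± 0.34) rose too. Downstream of S1pr2, Gna13 was not called in gene-span counts (0.51 ± 0.28), and Arhgef1 fell (-2.48 ± 0.54), but it overlapped, with 112, 208, 116 and 133 CPM in GC, against 916, 1139.9, 990.4 and 123 CPM in Follicular libraries. The follicle and dark zone receptors did not pass. Cxcr5 had 413, 434, 384 and 134 CPM in GC, against 441, 407, 408 and 725 CPM in Follicular libraries (adjusted p = 0.344). Cxcr4 had 37.6, 69.4, 58.2 and 142 CPM in GC, against 77.9, 153, 189 and 35.8 CPM in Follicular libraries (adjusted p = 0.448).

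Among B cell transcription factors 6 rose and 12 fell among 37 tested members (median -0.42), and 8 and 8 of 38 in exon reads. The rises were near the background of 14.6% and the falls above that of 10.5%. Against Follicular_wt replicate 4 alone the median of this list was -0.18. All 3 members of the MYB family rose, with differences of 8.25 ± 0.61 for Mybl1, 4.16 ± 0.64 for Mybl2 (B-MYB) and 3.79 ± 0.75 for Myb (c-MYB). Mybl2 had 17.3, 24.4, 44.4 and 34.4 CPM in GC, against 1.43, 1.99, 2.84 and 0.471 CPM in Follicular libraries. Prdm1, the plasma cell factor BLIMP-1, rose from a low base, with 24.1, 20.6, 8.98 and 30.5 CPM in GC, against 1.43, 3.10, 1.84 and 0.503 CPM in Follicular libraries (log2 fold change 3.61 ± 0.70, adjusted p = 0.00253). Irf4, which plasma cells also need, fell, with 10.2, 21.7, 12.5 and 31.3 CPM in GC, against 89.4, 83.6, 73.8 and 71.7 CPM in Follicular libraries (log2 fold change -2.07 ± 0.39, adjusted p = 0.00220). For these genes the libraries did not overlap. Tcf4, an E protein, rose (1.29 ± 0.303). NF-κB subunits were lower. Nfkb2 had 23.6, 51.0, 43.0 and 58.0 CPM in GC, against 399, 296, 248 and 87.3 CPM in Follicular libraries (log2 fold change -2.55 ± 0.45, adjusted p = 0.00150). Relb differed by -1.44 ± 0.32 and Rel by -1.13 ± 0.32. Klf3, a Krüppel-like repressor, had 6.48, 5.42, 26.2 and 8.20 CPM in GC, against 99.1, 112, 131 and 68.6 CPM in Follicular libraries (log2 fold change -3.15 ± 0.51, adjusted p = 8.83e-04). Klf2, its relative that drives S1pr1, had 4.98, 14.2, 70.6 and 71.7 CPM in GC, against 87.4, 90.0, 109 and 45.3 CPM in Follicular libraries and was not called (adjusted p = 0.265). GC_wt replicates 3 and 4 lay above Follicular_wt replicate 4. Myc (83.8, 94.3, 80.6 and 67.1 CPM in GC, against 20.3, 26.6, 43.7 and 159 CPM in Follicular libraries; adjusted p = 0.646) and Foxo1 (-0.71 ± 0.35, adjusted p = 0.153) were not called. Myc passed without Follicular_wt replicate 4 (log2 fold change 1.28, adjusted p = 0.0143). Foxo1 passed without Follicular_wt replicate 4 (log2 fold change -1.05, adjusted p = 0.0280). Pax5 fell in gene-span counts (-1.64 ± 0.46) but not in exon reads (adjusted p = 0.0821). Pax5 was not called without GC_wt replicate 1 or 4 (adjusted p up to 0.0569). Rel lost its call without GC_wt replicate 3 or Follicular_wt replicate 3 (adjusted p up to 0.0645). Tcf4 missed the threshold without Follicular_wt replicate 2 or 3 (adjusted p up to 0.0547). Exon falls numbered 4 without GC_wt replicate 3 and 5 without GC_wt replicate 2 or Follicular_wt replicate 2 or 3.

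Much of the machinery that mutates and recombines antibody genes was higher. Of 28 tested genes 15 rose and 1 fell (median 1.17), and in exon reads 18 rose and 0 fell. The median of the list was 0.47 against Follicular_wt replicate 4 alone. Hmces, which shields abasic sites in DNA, had 681, 784, 749 and 707 CPM in GC, against 109, 75.2, 68.9 and 117 CPM in Follicular libraries (log2 fold change 2.98 ± 0.32, adjusted p = 3.87e-05). Lig4, the ligase of end joining, had 36.4, 46.9, 34.2 and 72.1 CPM in GC, against 3.45, 4.44, 4.51 and 6.78 CPM in Follicular libraries (log2 fold change 3.30 ± 0.44, adjusted p = 1.99e-04). All 4 GC libraries lay far above all 4 Follicular libraries for both. Polh, the error-prone polymerase eta, had 79.6, 77.0, 91.1 and 77.8 CPM in GC, against 15.9, 22.2, 19.0 and 17.7 CPM in Follicular libraries (log2 fold change 2.12 ± 0.305, adjusted p = 3.73e-04). The translesion genes Rev1 (1.70 ± 0.38) and Rev3l (1.54 ± 0.35) rose with it. In mismatch repair Exo1 (3.16 ± 0.64) and Msh6 (1.23 ± 0.34) rose. Of the uracil glycosylases, Ung rose (2.11 ± 0.55) with an overlapping library, having 61.8, 19.0, 63.6 and 56.3 CPM in GC, against 10.6, 5.58, 5.81 and 24.2 CPM in Follicular libraries. Smug1 fell in gene-span counts only (-1.798 ± 0.46; exon adjusted p = 0.0678). Fam72a, an antagonist of UNG, rose from low levels, with 2.18, 14.7, 2.26 and 18.6 CPM in GC, against 0.295, 0.306, 0.234 and 0.597 CPM in Follicular libraries (log2 fold change 4.70 ± 1.00, adjusted p = 0.00422). Rif1, a factor of switch joining, rose by 1.33 ± 0.27. Msh6 was not called without GC_wt replicate 3 or Follicular_wt replicate 1 or 2 (adjusted p up to 0.102). Falls in this list numbered 3 without Follicular_wt replicate 4. Exon rises numbered 11 without Follicular_wt replicate 1. Exon falls numbered 1 without Follicular_wt replicate 4.

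Heavy-chain constant genes other than Igha were at 0 in the gene-span table, and all of them were read on exons. GC libraries held reads of the switched classes that Follicular libraries nearly lacked. Reads on constant exons do not show whether the transcript was joined to a variable segment. Switched classes (IgG, IgA and IgE) made up 46.4, 36.0, 38.9 and 44.5% in GC, against 1.37, 2.33, 1.66 and 1.19% in Follicular libraries, as a share of all heavy-chain constant reads. The means were 41.4 ± 4.86% and 1.64 ± 0.4998% (SD, n = 4 each; two-sided exact permutation test, p = 0.0286, the smallest that 4 against 4 allows, adjusted p = 0.0349 over 11 shares). Ighg1 led with 24.5, 16.5, 18.1 and 18.2% in GC, against 0.128, 0.140, 0.232 and 0.257% in Follicular libraries. Ighg2b had 8.86, 7.29, 9.39 and 7.73% in GC, against 0.116, 0.143, 0.193 and 0.324% in Follicular libraries. Ighg2c had 5.77, 4.93, 4.59 and 5.73% in GC, against 0.0480, 0.0632, 0.0241 and 0.0642% in Follicular libraries. These IgG genes are similar in sequence and reads could be split between them. Ighg3 had 5.65, 3.98, 3.68 and 11.3% in GC, against 0.849, 1.71, 0.963 and 0.404% in Follicular libraries. Each IgG share was higher in every GC library than in every Follicular library. Ighd, expressed with Ighm in resting cells, had 0.872, 4.31, 1.22 and 2.16% in GC, against 19.8, 29.2, 34.7 and 35.7% in Follicular libraries. Its level fell by 3.52 ± 0.57 on the log2 scale (edgeR on exon reads, adjusted p = 1.00e-03). Ighm itself was not called in level (log2 fold change 0.103 ± 0.33, adjusted p = 0.867). Its share was 52.7, 59.7, 59.9 and 53.3% in GC, against 78.8, 68.4, 63.7 and 63.1% in Follicular libraries. Igha varied between GC libraries, with 1.25, 3.03, 2.73 and 0% in GC, against 0.231, 0.269, 0.243 and 0.146% in Follicular libraries. It was listed at 0 of 37556 reads in GC_wt replicate 4, which allows up to 0.00799% (adjusted p of the share = 0.157). Ighe was rare, with 0.349, 0.190, 0.411 and 1.62% in GC, against 0, 0.00234, 0.00219 and 0% in Follicular libraries. The heavy-chain constant genes together took 0.390 ± 0.0694% of exon reads in GC and 0.323 ± 0.144% in Follicular libraries (exact permutation p = 0.400). Jchain, which joins IgM and IgA into polymers, had 922, 759.7, 1704 and 1135 CPM in GC, against 4.25, 5.81, 3.34 and 20.1 CPM in Follicular libraries (log2 fold change 7.07 ± 0.67, adjusted p = 1.36e-05).

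**Figure D4:**
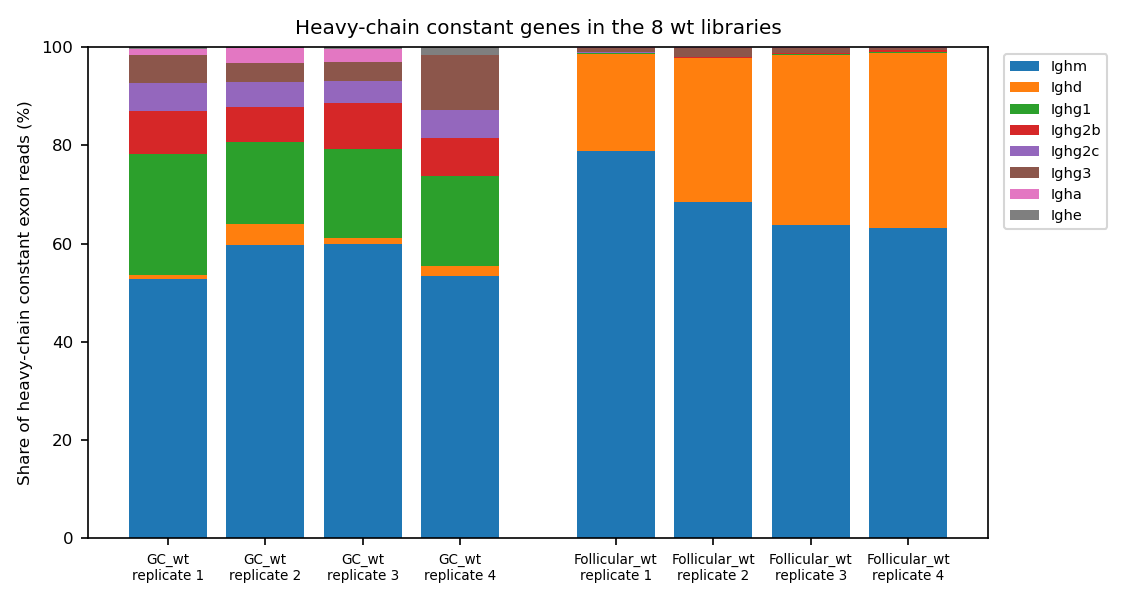
Bars give the share of each heavy-chain constant gene among the exon reads of the 8 genes (percent, 0 to 100) in each of the 4 GC_wt libraries (left) and the 4 Follicular_wt libraries (right). Switched classes take 36.0 to 46.4% in GC and 1.19 to 2.33% in Follicular libraries, where Ighm and Ighd fill the bars.

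DNA replication genes rose almost without exception: 27 of 28 were higher and 1 lower (median 2.90; 27 and 0 of 28 in exon reads, where the background was 9.76% higher and 8.56% lower). Mcm6, a subunit of the replicative helicase, had 619, 309, 522 and 303 CPM in GC, against 11.6, 8.49, 9.35 and 38.7 CPM in Follicular libraries (log2 fold change 4.68 ± 0.56, adjusted p = 8.64e-05). Mcm10 and Cdc6, which load and fire replication origins, rose by 7.53 ± 0.91 and 6.76 ± 0.72. Rrm2, of the enzyme that makes deoxynucleotides, had 449.7, 290.1, 687 and 332 CPM in GC, against 0.884, 1.45, 1.00 and 8.92 CPM in Follicular libraries (log2 fold change 7.15 ± 0.82, adjusted p = 6.46e-05). Tyms, thymidylate synthase, had 172, 146, 202 and 189 CPM in GC, against 8.501, 9.06, 9.28 and 6.97 CPM in Follicular libraries (log2 fold change 4.39 ± 0.32, adjusted p = 1.61e-06). Pcna, the polymerase clamp, had 155, 152, 296 and 267 CPM in GC, against 17.1, 22.6, 17.0 and 85.7 CPM in Follicular libraries (log2 fold change 2.61 ± 0.54, adjusted p = 0.00338). Follicular_wt replicate 4 was the highest Follicular library for Mcm6, Rrm2 and Pcna but not for Tyms. Cdt1, the licensing factor, was the member that fell (-0.85 ± 0.28, adjusted p = 0.0413), and it did not pass in exon reads (adjusted p = 0.0687). Cdt1 was not called without GC_wt replicate 1, 2 or 4 or Follicular_wt replicate 1, 2 or 3 (adjusted p up to 0.0945). Against Follicular_wt replicate 4 alone the list's median was 1.96. Falls in this list numbered 0 without GC_wt replicate 1, 2 or 4 or Follicular_wt replicate 1, 2 or 3. Exon falls numbered 1 without Follicular_wt replicate 4.

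Mitosis genes had the highest median of the lists. Of 30 members 29 rose and 0 fell (median 5.88), and all 29 did so in both measures without overlap (background 6.86%). Top2a, which untangles chromosomes (chromosome 11, 98883773 to 98915037), had 821, 562, 758 and 734 CPM in GC, against 4.76, 4.74, 5.77 and 4.84 CPM in Follicular libraries (log2 fold change 7.16 ± 0.37, adjusted p = 1.76e-07). Mki67, a coat of mitotic chromosomes and the marker Ki-67, had 819, 765, 787 and 694 CPM in GC, against 0.589, 2.56, 2.97 and 3.33 CPM in Follicular libraries. Cenpe, a kinetochore motor, had 353, 270.3, 384 and 305 CPM in GC, against 2.19, 2.41, 3.17 and 2.76 CPM in Follicular libraries (log2 fold change 6.96 ± 0.37, adjusted p = 1.76e-07). Kif23, a motor of cell cleavage, had 124, 122, 100.2 and 129 CPM in GC, against 3.91, 3.52, 3.74 and 4.24 CPM in Follicular libraries (log2 fold change 4.95 ± 0.33, adjusted p = 1.13e-06). The mitotic kinases Cdk1 (6.14 ± 1.06) and Plk1 (4.18 ± 0.37) and cyclin Ccnb2 (5.62 ± 0.47) rose with them. Cdk1 had 61.3, 69.0, 114 and 147 CPM in GC, against 0.0842, 0.191, 0.3004 and 4.87 CPM in Follicular libraries, and Follicular_wt replicate 4 lay above the other Follicular libraries yet far below GC. Cdc25b, a phosphatase that activates CDK1, was the member not called, with 54.6, 52.6, 42.7 and 79.4 CPM in GC, against 45.0, 35.2, 43.3 and 47.1 CPM in Follicular libraries (adjusted p = 0.354). Against Follicular_wt replicate 4 alone the median was 4.97.

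Because the mitosis genes moved together, their promoters were read for the elements that late cell cycle promoters are known for, the cell cycle homology region (CHR, TTTGAA) that the DREAM and B-MYB complexes bind, and the CCAAT box of NF-Y, both on either strand. RefSeq promoters (250 bases before to 50 after a start, build GRCm38.p6) were found for 23 of the 30 genes, in 25 windows. The CHR letters were in 72.0% of these windows, against 17.9% of all 32851 windows, and the CCAAT letters in 92.0%, against 37.4%. Both were in 72.0% of mitosis windows and 6.95% of all windows, while DNA replication promoters held CHR in 11.1% and CCAAT in 63.0%. The sequences are 4 of the promoters that hold both motifs, chosen for large log2 fold changes, printed 5′ to 3′ on the gene's strand with the motif letters in capitals (TTTGAA or TTCAAA, and CCAAT or ATTGG, which do not overlap here; Cenpf at chr1:189688037-189688336, - strand, Mki67 at chr7:135716330-135716629, - strand, Kif11 at chr19:37376132-37376431, + strand, Prc1 at chr7:80294201-80294500, + strand). A match of letters is a description and not a site.
Cenpf: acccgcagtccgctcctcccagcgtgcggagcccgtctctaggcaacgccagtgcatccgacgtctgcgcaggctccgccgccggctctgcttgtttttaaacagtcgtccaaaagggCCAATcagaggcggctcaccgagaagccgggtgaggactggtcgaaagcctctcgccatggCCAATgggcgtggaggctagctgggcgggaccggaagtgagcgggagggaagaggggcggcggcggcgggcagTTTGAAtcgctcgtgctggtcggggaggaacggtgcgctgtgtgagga
Mki67: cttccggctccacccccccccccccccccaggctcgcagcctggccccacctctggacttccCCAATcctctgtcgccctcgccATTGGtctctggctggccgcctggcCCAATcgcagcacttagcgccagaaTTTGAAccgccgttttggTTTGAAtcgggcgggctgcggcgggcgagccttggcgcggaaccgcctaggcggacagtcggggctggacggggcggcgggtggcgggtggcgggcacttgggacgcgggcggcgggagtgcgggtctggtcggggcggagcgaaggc
Kif11: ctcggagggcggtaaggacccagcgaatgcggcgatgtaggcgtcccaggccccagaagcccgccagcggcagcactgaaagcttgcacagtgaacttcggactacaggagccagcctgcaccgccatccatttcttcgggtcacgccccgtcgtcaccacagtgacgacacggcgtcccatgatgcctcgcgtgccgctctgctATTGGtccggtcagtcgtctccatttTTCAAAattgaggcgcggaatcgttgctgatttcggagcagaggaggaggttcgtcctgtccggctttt
Prc1: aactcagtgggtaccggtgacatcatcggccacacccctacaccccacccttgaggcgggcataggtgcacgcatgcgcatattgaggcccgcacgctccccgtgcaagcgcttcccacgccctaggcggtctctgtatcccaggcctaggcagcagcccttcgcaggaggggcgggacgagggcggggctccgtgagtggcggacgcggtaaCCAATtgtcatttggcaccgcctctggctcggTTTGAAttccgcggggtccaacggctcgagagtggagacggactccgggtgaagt

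Regulators of cell cycle entry were more mixed: 8 rose and 3 fell among 23 tested members (median 0.29, and -0.25 against Follicular_wt replicate 4 alone). In exon reads 9 of 24 rose and 1 fell. The E-type cyclins rose. Ccne1 had 44.8, 33.6, 50.6 and 36.5 CPM in GC, against 4.50, 6.35, 8.01 and 7.04 CPM in Follicular libraries (log2 fold change 2.68 ± 0.40, adjusted p = 4.92e-04). Ccne2 rose by 3.41 ± 0.51, as did their kinase Cdk2 on exons (2.39 ± 0.47, adjusted p = 0.00377). E2f7 had 63.2, 48.0, 28.1 and 46.6 CPM in GC, against 0.0842, 0.0382, 0.3004 and 0 CPM in Follicular libraries. E2f8 had 22.5, 21.1, 22.3 and 56.4 CPM in GC, against 0, 0.115, 0.1001 and 0 CPM in Follicular libraries. The activator E2f1 rose by 2.69 ± 0.48. Of the CDK inhibitors, Cdkn1b (p27), a brake of resting cells, had 6.62, 12.3, 19.9 and 9.20 CPM in GC, against 47.9, 91.8, 81.5 and 45.4 CPM in Follicular libraries (log2 fold change -2.48 ± 0.43, adjusted p = 0.00137). Cdkn2c (p18) rose, with 19.9, 21.2, 51.8 and 51.9 CPM in GC, against 1.64, 2.10, 1.40 and 4.62 CPM in Follicular libraries (log2 fold change 3.88 ± 0.59, adjusted p = 5.79e-04). Ccnd3, the cyclin that dark zone cells depend on, fell in gene-span counts (-2.22 ± 0.48) but had a difference of 0.29 in exon reads (adjusted p = 0.606). Falls in this list numbered 5 without GC_wt replicate 3 or Follicular_wt replicate 4.

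Dark zone genes, many of them mitotic, rose in 11 of 14 cases and fell in 1 (median 4.96). In exon reads 11 of 14 rose and 0 fell. The member that fell in gene-span counts was Ccnd3, and Cxcr4 and Foxo1 were not called, as given above. Rises outside the mitosis list included Hmmr, a spindle protein (7.77 ± 0.55), and Tfdp1, the partner of E2F factors (3.03 ± 0.40). Light zone genes rose in 4 of 18 cases and fell in 2 (median 0.3, and -0.75 against Follicular_wt replicate 4 alone). In exon reads 5 of 20 light zone genes rose and 2 fell (median 0.067). The light zone list holds Fcer2a, a gene used to sort Follicular cells. Slamf1, a contact receptor for T cells, had 244, 361, 213 and 187 CPM in GC, against 67.7, 30.1, 32.2 and 29.9 CPM in Follicular libraries (log2 fold change 2.65 ± 0.38, adjusted p = 3.59e-04). Egr1, an early gene of receptor signalling, had 112, 57.0, 102 and 51.2 CPM in GC, against 19.3, 27.3, 46.3 and 15.4 CPM in Follicular libraries (log2 fold change 1.57 ± 0.42, adjusted p = 0.0142). Nr4a1, another, fell, with 9.35, 10.6, 4.32 and 2.42 CPM in GC, against 38.3, 33.6, 61.6 and 86.8 CPM in Follicular libraries (log2 fold change -3.04 ± 0.53, adjusted p = 0.00136). Cd83, an activation marker, had 1439, 1158, 2161 and 908 CPM in GC, against 354, 211, 375 and 2017 CPM in Follicular libraries (adjusted p = 0.288). Follicular_wt replicate 4 was within the GC range and the other Follicular libraries below it. Cd86, which costimulates T cells, was not called in gene-span counts (0.61 ± 0.40) but was in exon reads (1.79, adjusted p = 0.0226). Cd83 passed without Follicular_wt replicate 4 (log2 fold change 2.01, adjusted p = 0.00182). Egr1 was not called without GC_wt replicate 1 or Follicular_wt replicate 1 (adjusted p up to 0.0624). Falls in the dark zone list numbered 2 without Follicular_wt replicate 4. Rises in the light zone list numbered 1 without GC_wt replicate 1 or Follicular_wt replicate 1 and 2 without Follicular_wt replicate 2 or 3.

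None of the 32 tested B cell receptor signalling genes rose and 12 fell in gene-span counts (median -0.80); in exon reads 2 rose and 5 fell. The gene-span median was -0.67 against Follicular_wt replicate 4 alone. The list holds Cr2, a gene used to sort Follicular cells. Falls shared by both measures included Fcgr2b, the inhibitory Fc receptor, with 24.9, 60.001, 62.8 and 20.9 CPM in GC, against 130.1, 139, 126 and 329 CPM in Follicular libraries (log2 fold change -2.10 ± 0.46, adjusted p = 0.00476). The others named were Malt1, a protease of NF-κB signalling (-1.65 ± 0.33), the receptor subunit Cd79a (-1.01 ± 0.34) and Csk, an inhibitor of SRC kinases (-1.45 ± 0.38). Cd79a had 866, 963, 1794 and 1010.2 CPM in GC, against 2772, 2499, 1935 and 2154 CPM in Follicular libraries, so the highest GC library lay just below the lowest Follicular one. Syk (-0.98 ± 0.33; exon adjusted p = 0.162) and Prkcb (-1.43 ± 0.38; exon adjusted p = 0.355) were called in gene-span counts only, and with Csk they overlapped. Cd79a was not called without GC_wt replicate 1, 2 or 4 or Follicular_wt replicate 1 or 2 (adjusted p up to 0.103). Syk lost its call without GC_wt replicate 1, 3 or 4 or Follicular_wt replicate 1, 2 or 3 (adjusted p up to 0.127). Falls in this list numbered 6 without GC_wt replicate 1 and 7 without GC_wt replicate 4. Exon rises numbered 0 without GC_wt replicate 3 or Follicular_wt replicate 1, 2 or 3, 1 without GC_wt replicate 1, 2 or 4 and 5 without Follicular_wt replicate 4. Exon falls numbered 0 without GC_wt replicate 1, 1 without GC_wt replicate 4 or Follicular_wt replicate 1, 2 or 3, 2 without GC_wt replicate 3 and 9 without Follicular_wt replicate 4.

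Among genes that receive T cell help and cytokines, 6 rose and 11 fell among 32 tested members (median -0.82), and 6 and 8 of 31 in exon reads. The gene-span background was 14.6% higher and 10.5% lower. The median of these genes was -1.10 against Follicular_wt replicate 4 alone. Il10ra, the receptor for interleukin-10, had 6.41, 14.8, 19.2 and 2.30 CPM in GC, against 163, 156, 255 and 207 CPM in Follicular libraries (log2 fold change -4.19 ± 0.56, adjusted p = 2.33e-04). Il4ra, for interleukin-4, had 34.8, 55.2, 41.9 and 53.0 CPM in GC, against 263, 226, 193 and 96.1 CPM in Follicular libraries (log2 fold change -2.07 ± 0.36, adjusted p = 0.00126). Its partners Il2rg (-1.56 ± 0.36) and Jak3 (-2.29 ± 0.39) fell with it. Ifnar1, of the type I interferon receptor, fell by 2.18 ± 0.41 on the log2 scale. The T cell ligands Icosl (-2.08 ± 0.35), Cd274 (PD-L1, -1.52 ± 0.43) and Pdcd1lg2 (PD-L2, -2.07 ± 0.52) fell. Cd80, which costimulates T cells, rose, with 24.1, 29.0, 48.8 and 10.7 CPM in GC, against 2.31, 1.68, 4.04 and 2.01 CPM in Follicular libraries (log2 fold change 3.48 ± 0.60, adjusted p = 0.00126). Tgfbr1 (1.44 ± 0.28) and Tnfrsf14 (1.23 ± 0.35) rose. Tnfrsf14 was not called without GC_wt replicate 3 or Follicular_wt replicate 1 or 2 (adjusted p up to 0.116). Cd274 lost its call without GC_wt replicate 1 (adjusted p 0.0545). Cd40 and Il21r, which receive CD40 ligand and interleukin-21, were not called (-0.56 ± 0.32, adjusted p = 0.225, and -0.55 ± 0.31, adjusted p = 0.220). Rises in this list numbered 3 without Follicular_wt replicate 1 or 2. Exon rises numbered 1 without Follicular_wt replicate 2, 2 without Follicular_wt replicate 1 and 3 without GC_wt replicate 1 or 3 or Follicular_wt replicate 3.

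Bcl2, the survival protein of resting B cells (chromosome 1, 106465906 to 106642020), was the largest fall among survival genes, with 24.4, 59.6, 28.7 and 25.5 CPM in GC, against 623, 547, 667 and 219 CPM in Follicular libraries (log2 fold change -3.89 ± 0.46, adjusted p = 7.84e-05; -2.61 in exon reads). In the whole list 4 rose and 4 fell among 23 tested members (median 0.29), and 4 and 2 of 25 in exon reads. Fas, part of the GC gate, is a member and rose, so the sort bears on that rise. The rises were near the background of 14.6%, and the median was -0.12 against Follicular_wt replicate 4 alone. Bcl2a1a, a BCL2 relative with near-identical copies, rose from low values (2.78 ± 0.91), and so did the death gene Bid (1.23 ± 0.42), with an overlapping Follicular_wt replicate 4. Bmf, a death activator, fell (-2.31 ± 0.60). Bcl2a1a was not called without GC_wt replicate 1 or 3 or Follicular_wt replicate 1, 2 or 3 (adjusted p up to 0.121). Bid lost its call without GC_wt replicate 1, 2 or 3 or Follicular_wt replicate 1, 2 or 3 (adjusted p up to 0.121). Rises in this list numbered 2 without GC_wt replicate 1 or 3 or Follicular_wt replicate 1, 2 or 3. Exon rises numbered 2 without GC_wt replicate 1, 2 or 3 or Follicular_wt replicate 1, 2 or 3 and 7 without Follicular_wt replicate 4. Exon falls numbered 1 without GC_wt replicate 1 or 3 or Follicular_wt replicate 2 or 3. Mcl1, which germinal center cells need, had 192, 359.6, 383 and 337 CPM in GC, against 227, 181, 205 and 329 CPM in Follicular libraries and was not called (adjusted p = 0.367).

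Chromatin genes moved in both directions: 10 rose and 6 fell among 27 tested members (median 0.504), with 11 and 3 of 27 in exon reads. The gene-span median was 0.20 against Follicular_wt replicate 4 alone. Ezh2, the methyltransferase of Polycomb complex 2 (chromosome 6, 47507208 to 47613843), had 343, 385, 439.9 and 402 CPM in GC, against 55.2, 45.2, 64.1 and 47.7 CPM in Follicular libraries (log2 fold change 2.89 ± 0.298, adjusted p = 2.68e-05; 4.38 in exon reads). Its partners Eed (1.42 ± 0.35) and Suz12 (1.33 ± 0.28) rose, while the relative Ezh1 fell (-1.57 ± 0.38). Kdm6b, a demethylase of the same histone mark, had 23.1, 27.9, 41.5 and 31.0 CPM in GC, against 121, 249, 263 and 44.9 CPM in Follicular libraries (log2 fold change -2.46 ± 0.48, adjusted p = 0.00270). For DNA methylation, Dnmt1 (1.87 ± 0.28), which copies methylation at replication, rose with its recruiter Uhrf1, which had 140.1, 71.0, 149 and 138 CPM in GC, against 6.31, 7.92, 7.51 and 6.25 CPM in Follicular libraries (log2 fold change 4.15 ± 0.36, adjusted p = 6.46e-06). Hells rose too (3.05 ± 0.31). Dnmt3a, which sets new methylation, fell, with 19.2, 16.8, 6.51 and 25.9 CPM in GC, against 206, 179, 164 and 62.9 CPM in Follicular libraries (log2 fold change -3.16 ± 0.48, adjusted p = 5.29e-04). Hmgb2 (4.02 ± 0.48) and the histone methyltransferase Suv39h1 (1.59 ± 0.42) rose. Exon falls numbered 5 without Follicular_wt replicate 4.

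In glycolysis 4 rose and 3 fell among 16 tested members (median 0.69, and -0.34 against Follicular_wt replicate 4 alone). The background was 14.6% higher and 10.5% lower. In exon reads 4 of 17 rose and 1 fell, and 1 fall held in both measures without overlap. Tpi1 (1.56 ± 0.35), Pfkp (1.19 ± 0.35), Hk2 (1.91 ± 0.59) and the lactate transporter Slc16a1 (1.81 ± 0.44) rose, and the glucose transporter Slc2a3 fell (-1.16 ± 0.34). Rises in the glycolysis list numbered 2 without GC_wt replicate 1 or 2 or Follicular_wt replicate 1 or 3. Falls in the glycolysis list numbered 1 without GC_wt replicate 4. Cholesterol synthesis rose in 6 of 15 genes and fell in 0 (median 0.95, and 0.048 against Follicular_wt replicate 4 alone). In exon reads 6 of 16 cholesterol genes rose and 0 fell. Hmgcs1 (1.33 ± 0.43) and Cyp51 (1.42 ± 0.44), enzymes of this pathway, rose, but Follicular_wt replicate 4 had 74.9 and 54.1 CPM, close to the lowest GC library. Hk2 was not called without GC_wt replicate 1 or 2 or Follicular_wt replicate 1, 3 or 4 (adjusted p up to 0.117). Pfkp lost its call without GC_wt replicate 1 or 2 or Follicular_wt replicate 1, 2 or 3 (adjusted p up to 0.101). Slc2a3 missed the threshold without GC_wt replicate 4 (adjusted p 0.0553). Hmgcs1 was not called without GC_wt replicate 1, 2, 3 or 4 or Follicular_wt replicate 1, 2 or 3 (adjusted p up to 0.0985). Cyp51 lost its call without GC_wt replicate 1, 3 or 4 or Follicular_wt replicate 1, 2 or 3 (adjusted p up to 0.0769). Rises in the cholesterol list numbered 2 without GC_wt replicate 3 or 4 or Follicular_wt replicate 1, 2 or 3 and 3 without GC_wt replicate 1. Falls in the cholesterol list numbered 1 without GC_wt replicate 2 or Follicular_wt replicate 4. No oxidative metabolism gene (22 tested, median 0.31) and no antigen presentation gene (14 tested, median -0.29) was called in gene-span counts. Against Follicular_wt replicate 4 alone their medians were -0.499 and -0.80. Without Follicular_wt replicate 4, 5 oxidative genes were higher and 1 lower in gene-span counts, and in exon reads 12 of 22 were higher and 0 lower, beside 2 and 0 with all 8 libraries. Over all genes that exon test called 2783 of 14915 higher, beside 1371 of 14045 with all 8 libraries. For presentation genes the same left-out library gave 1 higher and 3 lower in gene-span counts and 2 and 3 in exon reads, beside 0 and 1 in exon reads with all 8. Each other left-out library gave 0 to 1 exon rises and 0 to 1 exon falls among oxidative genes.

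Of the RAS to ERK genes 2 rose and 2 fell among 24 tested, shares near or below the background (median -0.16, and 0.06 against Follicular_wt replicate 4 alone). In exon reads 2 of 24 rose and 1 fell, with a median of 0.53. Map2k1 (Mek1) was not called, with 231, 257, 219 and 146 CPM in GC, against 284, 337, 277 and 298 CPM in Follicular libraries (log2 fold change -0.49 ± 0.29, adjusted p = 0.246; 0.51 in exon reads). Map2k2 (Mek2) fell in gene-span counts, with 52.6, 59.8, 42.6 and 72.7 CPM in GC, against 155, 149.9, 119 and 80.7 CPM in Follicular libraries (log2 fold change -1.15 ± 0.32, adjusted p = 0.0173). It was not called in exon reads (-0.80, adjusted p = 0.143). GC_wt replicate 4, the library named Mek1ff, had the lowest Map2k1 of the 8 and the highest Map2k2 of the GC libraries. Spred1, an inhibitor of RAS signalling, had 22.8, 61.8, 38.6 and 19.8 CPM in GC, against 4.88, 6.54, 7.11 and 4.87 CPM in Follicular libraries (log2 fold change 2.61 ± 0.48, adjusted p = 0.00192). Junb, an ERK-responsive AP-1 subunit, had 89.8, 125, 88.5 and 69.7 CPM in GC, against 784, 792, 723 and 207 CPM in Follicular libraries (log2 fold change -2.75 ± 0.43, adjusted p = 6.87e-04). Dusp6, an ERK phosphatase induced by the pathway, was not called (adjusted p = 0.140), with 23.6, 24.5, 25.8 and 6.84 CPM in GC, against 17.4, 17.4, 26.5 and 169 CPM in Follicular libraries. Dusp6 passed without Follicular_wt replicate 1 or 2 (log2 fold change -1.79, adjusted p = 0.0427). Rises in this list numbered 1 without GC_wt replicate 1 or Follicular_wt replicate 1. Falls in this list numbered 4 without Follicular_wt replicate 4.

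Markers of other cells also differed between the sorts. The 10 plasma cell genes summed to 1866 to 3162 CPM in GC and 448 to 1214 CPM in Follicular libraries. These sums came mostly through Jchain and the secretory genes Xbp1 and Mzb1, and each was detected in at least 1 library. A single gene each of the T cell, NK cell, macrophage, dendritic cell, erythroid and dissociation stress lists was at 0 in all 8 libraries of the gene-span table. In GC, Prdm1 and Jchain rose while Irf4 fell and Sdc1 was not called. Xbp1 had 327, 349.7, 359 and 197 CPM in GC, against 72.1, 39.0, 38.9 and 271 CPM in Follicular libraries (adjusted p = 0.0588). Xbp1 passed without Follicular_wt replicate 4 (log2 fold change 2.49, adjusted p = 3.11e-04). The 14 T cell genes summed to 197 to 304 CPM in GC and 63.1 to 183 CPM in Follicular libraries. Lck, which B cells can also use, had 266, 230.1, 266 and 132 CPM in GC, against 86.2, 54.1, 77.0 and 101 CPM in Follicular libraries (log2 fold change 1.49 ± 0.33, adjusted p = 0.00524) and made up most of that sum in GC. The 8 marginal zone genes summed to 232 to 297 CPM in GC and 453 to 837 CPM in Follicular libraries: Notch2 fell (-2.90 ± 0.42) and S1pr3 rose with overlap (2.38 ± 0.58). The 11 macrophage genes summed to 66.7 to 128 CPM in GC and 74.1 to 294 CPM in Follicular libraries, and C1qa fell (-2.80 ± 0.58). The 9 dendritic cell genes summed to 75.3 to 122 CPM in GC and 75.7 to 103 CPM in Follicular libraries: Flt3 rose (2.11 ± 0.40) and Bst2 fell (-2.99 ± 0.42). The 8 NK cell genes summed to 4.11 to 14.6 CPM in GC and 6.96 to 24.9 CPM in Follicular libraries. The 10 neutrophil genes summed to 0.137 to 25.8 CPM in GC and 0.157 to 1.94 CPM in Follicular libraries, and the 9 immature and progenitor B cell genes to 158 to 447 CPM in GC and 217 to 334 CPM in Follicular libraries. The 8 erythroid genes summed to 22.9 to 141 CPM in GC and 131 to 236 CPM in Follicular libraries and the 10 stromal genes to 72.4 to 205 CPM in GC and 377 to 455 CPM in Follicular libraries. On exons the stromal sums overlapped, at 47.6 to 157 CPM in GC and 156 to 298 CPM in Follicular libraries. The 11 genes of dissociation stress summed to 199.8 to 334 CPM in GC and 975 to 1658 CPM in Follicular libraries: Ier2 (-3.19 ± 0.31), Jun (-2.36 ± 0.67) and Junb fell and Egr1 rose. Jun was not called without GC_wt replicate 4 or Follicular_wt replicate 1 (adjusted p up to 0.136). The part of these cells or of handling in the results was not tested.

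The same comparison in the 4 GC and 4 Follicular libraries labelled 1Mek2, which share no library with the wt ones, called 4527 of 14673 genes (30.9%), 2386 higher and 2141 lower in GC. Of the 3923 genes called in wt, 3646 were tested there; 2760 (75.7%) were called in the same direction and 0 in the opposite one. The shared genes made up 66.4% of the 1Mek2 calls tested in wt. Of the 1545 genes called without overlap in both measures, 1506 were tested and 1212 (80.5%) were called in the same direction. Log2 fold changes in 1Mek2 and wt libraries were 6.79 and 7.58 for S1pr2 and 6.87 and 8.33 for Mki67. They were -3.58 and -4.0 for S1pr1 and -2.44 and -3.89 for Bcl2. A test of the difference between these effects (edgeR interaction) called 0 of 18843 genes, with 783 at an unadjusted p below 0.05; DESeq2 called 5 and limma voom 0. The light zone list had 1 gene higher and 0 lower in 1Mek2 (median -0.34), against 4 and 2 in wt (median 0.3), and cholesterol synthesis 6 and 2, against 6 and 0. The difference between lists was not tested. The switched share was 56.8 ± 2.98% in GC_1Mek2 and 6.11 ± 2.02% in Follicular_1Mek2 (SD, n = 4 each; exact permutation p = 0.0286). The test of its GC minus Follicular difference, 50.7 percentage points in 1Mek2 and 39.8 in wt, missed the threshold (exact permutation p = 0.0967).

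**Figure D5:**
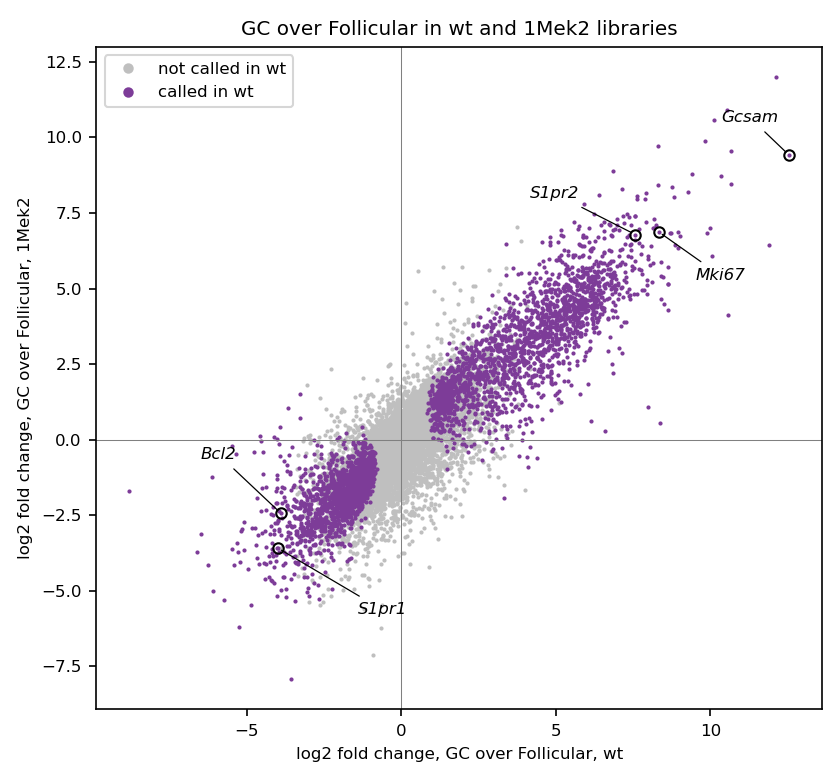
Each point is a gene tested in both genotypes, placed by its log2 fold change (GC over Follicular, gene-span counts) in wt (x) and in 1Mek2 libraries (y); purple points were called in wt. The 2 contrasts share no library, and 2760 of 3646 purple points were called in the same direction in 1Mek2.

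Animal 636, of the 1Mek2 label, gave both a GC and a Follicular library, the only such animal here, and allows a look within an animal with no test. Of the 1545 genes 1516 (98.1%) differed in the same direction in it, with a median log2 ratio (CPM + 1) of 2.09 for those higher in wt GC and -1.79 for those lower, beside -0.11 for all tested genes. Mki67 had 610.4 CPM in GC, against 6.37 CPM in Follicular. S1pr1 had 12.6 CPM in GC, against 490.1 CPM in Follicular, and Bcl2 had 5.96 CPM in GC, against 109 CPM in Follicular. The mitosis list had a median log2 ratio of 5.18 and the naive and follicular identity list one of -2.35 in this animal. The light zone list had one of -1.10, and 4 of its 6 genes called in wt kept their direction. Of the survival list (median -0.068), 6 of its 8 genes called in wt kept it, and of the GC identity list 11 of its 12 genes called in wt did.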

How the data were processed

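Bulk RNA-seq of polyadenylated RNA from sorted spleen B cells was deposited as a table of raw counts per gene and a table of TPM. Reads were trimmed with Trim Galore 0.6.5, aligned with STAR 2.7.11a to GRCm39 and counted with featureCounts 2.0.3, per the submitters' processing notes. In the deposited count table each gene is 1 interval from start to end in 50760 of 50763 genes, so the authors' counts hold intronic reads, and 1849 genes are at 0 there that have a mean of at least 10 exon reads. The deposited TPM values, divided by the value of 1 read, gave whole exon reads in 100% of entries (tolerance 0.02), and these were tested as a second measure. Strand use in counting is not given in the sources used here. Groups came from the titles. Replicates are different animals by the numbers in library names. edgeR 4.0.16 (TMM, filterByExpr, robust quasi-likelihood F test, R 4.3.3) tested each contrast over all genes with Benjamini-Hochberg adjustment at 0.05, and errors given as ± after a log2 fold change are standard errors derived from its F statistic. CPM uses TMM-scaled library sizes of the fit for each genotype. Shares of isotypes were compared by exact permutation tests. limma 3.58.1 voom, DESeq2 1.42.0, other scalings, filters and left-out libraries were alternatives. Data were also simulated with the same dispersion for every gene (0.4351 over 15463 genes in gene-span counts, 0.438 over 13812 in exon reads) and few changed genes. There edgeR recovered 25.8% of changes of 2 on the log2 scale, 73.4% of changes of 3 and 100% of changes of 4 in gene-span counts. In exon reads it recovered 16.2%, 77.9% and 96.9%. The real data differ in both respects, so these shares do not say how many real changes the tests missed. Named genes are S1pr2, Gcsam, Mybl1, Map2k1, Map2k2, list members, and the 15 largest rises and 15 largest falls called in both measures without overlap, at a mean of at least 5 CPM, leaving out predicted genes, pseudogenes, immunoglobulin segments and Y-linked genes. A few genes that this rule names are not reported here. The members and lists were chosen with earlier results of these data known. Promoters are RefSeq windows of GRCm38.p6, matched by symbol, and protein sequences are not used here. Precision is limited by 4 libraries a group and depths of 15684426 to 33450184 counts.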

Additional observations from a re-analysis of the deposited data

Results flagged for a closer look

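In some results 1 library stood apart from the other 3 of its group, by a gap above the 95% critical value of Dixon's ratio for 4 samples. Chance alone gives about 1 in 20 groups where values are not tied, and 64 of 404 group values met it, some of them with ties. Follicular_wt replicate 4 was above the others of its group for Nuggc (0.911 CPM), Bid (200.4 CPM), Ccr7 (748 CPM), Cd55 (814 CPM), Cd83 (2017 CPM), Cdk1 (4.87 CPM), Cxcr5 (725 CPM), Cyp51 (54.1 CPM), Dusp6 (169 CPM), Eaf2 (15.7 CPM), Eed (196 CPM), Exo1 (10.5 CPM), Fcer2a (1171 CPM), Fcgr2b (329 CPM), Hmgcs1 (74.9 CPM), Ifnar1 (470.5 CPM), Jchain (20.1 CPM), Mcm6 (38.7 CPM), Myc (159 CPM), Pcna (85.7 CPM), Rrm2 (8.92 CPM), S1pr3 (25.8 CPM), Sdc1 (9.61 CPM), Slc2a3 (102 CPM), Suv39h1 (49.6 CPM), Tpi1 (67.6 CPM), Xbp1 (271 CPM), heavy-chain constant exon reads (157208), their share of exon reads (0.538%) and the plasma cell list (1214 CPM summed). It was below them for Lfng (16.4 CPM), Csk (249 CPM), Junb (207 CPM), Notch2 (155 CPM), Pax5 (593 CPM) and the marginal zone B cell list (453 CPM summed). Follicular_wt replicate 3 was above the others of its group for Nrep (0.0334 CPM), C1qa (38.8 CPM), Plxnb2 (3.20 CPM), Prc1 (0.134 CPM), Rel (612 CPM), Tnfrsf14 (29.6 CPM) and Top2a (5.77 CPM). Follicular_wt replicate 2 was above the others of its group for H1f10 (0.0382 CPM). Nrep and H1f10 rest on 1 Follicular read each, so their ratio of 1 followed from that read. For Prc1 the ratio was also 1. Follicular_wt replicate 1 was above the others of its group for Jun (142 CPM), Slamf1 (67.7 CPM), Tcf4 (301 CPM) and the neutrophil list (1.94 CPM summed). GC_wt replicate 1 was above the others of its group for Pdk2 (0.358 CPM). GC_wt replicate 2 was above the others of its group for Bcl2 (59.6 CPM), Il21r (216 CPM) and S1pr1 (71.0 CPM). It was below them for Uhrf1 (71.0 CPM) and Ung (19.0 CPM). GC_wt replicate 3 was above the others of its group for Cd79a (1794 CPM), Eed (469.7 CPM), Fas (411 CPM) and Klf3 (26.2 CPM). GC_wt replicate 4 was above the others of its group for E2f8 (56.4 CPM), the Ighe share (1.62%) and the neutrophil list (25.8 CPM summed). It was below them for Cxcr5 (134 CPM), Dusp6 (6.84 CPM) and the T cell list (197 CPM summed).

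The GC minus Follicular difference in isotype share differed between 1Mek2 and wt libraries for 3 IgG genes, by permuting the genotype labels within each subset (4900 arrangements, exact permutation test, two-sided, adjusted over 11 shares). The difference in 1Mek2 minus that in wt was -3.32 percentage points for Ighg2b (adjusted p = 0.00449), -2.35 for Ighg2c (adjusted p = 0.00748) and -4.90 for Ighg3 (adjusted p = 0.00673). For Ighg1 it was 21.0 percentage points (adjusted p = 0.0611). Ighg1 averaged 42.0 ± 4.01% in GC_1Mek2 and 19.3 ± 3.55% in GC_wt libraries (SD, n = 4 each). On leaving out each of the 16 libraries in turn, chosen after seeing the data (2450 arrangements each), Ighg2b passed every time (adjusted p up to 0.0135). Ighg2c missed the threshold without GC_wt replicate 1, 2, 3 or 4 (adjusted p = 0.0524 to 0.0763). Ighg3 rested in part on GC_wt replicate 4, the library named Mek1ff, whose share of 11.3% lay above the 3.68 to 5.65% of the other GC_wt libraries: without it the difference was -3.19 percentage points (adjusted p = 0.0157), and without GC_1Mek2 replicate 4 it missed the threshold (adjusted p = 0.0584). Ighg1 passed only without Follicular_wt replicate 1 (adjusted p = 0.0494). Shares of 1 total move together, so these are not separate results, and housing or immune history of the animals is not given in the labels.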

How the results depend on the processing

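Beside the 3923 genes called in gene-span counts, exon reads called 2573, a table without a filter on low counts 13141, a fit over all 6 wt subsets 9608 and a fit with Follicular_wt replicate 4 as the only Follicular library 431. The median of all genes was 1.64 without the filter and 0.14 under upper quartile scaling, against 0.041 under TMM. RLE scaling called 3917, upper quartile scaling 3862, genes with a mean of at least 5 CPM 2734, DESeq2 4971 and limma voom 3973. Leaving out 1 library gave 3052 to 7024. Exon reads gave 1610 to 4793 on leaving out 1 library, 614 with Follicular_wt replicate 4 as the only Follicular library, 2561 under RLE, 3782 in DESeq2 and 2945 in limma voom, all chosen after seeing the data. In 1Mek2 the count was 9570 without the filter, 2694 at a mean of at least 5 CPM and 3471 to 6771 on leaving out 1 library. The interaction gave 5 in DESeq2 and 0 to 3 on leaving out 1 library. Replicate numbers do not pair GC with Follicular libraries, which came from different animals (correlations of deviations -0.3047 to 0.1198 in wt and -0.248 to 0.1972 in 1Mek2). The fit with the replicate number as a block called 2791 genes in wt, 2121 in exon reads and 4653 in 1Mek2. Of 157 called named genes 9 lost their call and 1 turned in exon reads, 18 lost it without the filter, 9 under the block and 101 against Follicular_wt replicate 4 alone. Log2 fold changes turned in exon reads for Ccnd3 (0.29), Foxo1 (0.0401) and Map2k1 (0.51), without the filter for Cdc25b (-0.0481), and against Follicular_wt replicate 4 alone for Cd83 (-0.74), Cd86 (-0.0998), Cdc25b (-0.10), Cxcr4 (0.68), Hmgcs1 (-0.0005), Lmo2 (-0.21), Mcl1 (-0.32), Myc (-1.25), Mzb1 (-0.16) and Xbp1 (-0.0595). The cause was not tested. In simulated data, changes of 2 on the log2 scale were recovered in 25.8% of 66 genes and changes of 4 in 100% of 70 (gene-span counts, 15463 genes). The simulation gave every gene the same dispersion and changed far fewer genes than were called here. Its recovery does not say how many real changes the tests missed.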

Other observations

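Gene families were taken by name from the table, after its values were seen. They are given as gene-span calls with no set test (background 14.6% higher and 10.5% lower). Calls in both measures without overlap follow them (background 6.86% higher and 5.7% lower). Of the centromere proteins named Cenp, 15 rose and 0 fell among 20 tested (median log2 fold change 2.19), among them Cenpa, the histone that marks centromeres, with 107, 94.0, 152 and 164 CPM in GC, against 27.4, 23.5, 25.4 and 44.6 CPM in Follicular libraries (2.09 ± 0.34). Of the condensin and cohesin subunits, which fold and hold chromosomes, 10 rose and 0 fell among 13 tested, with Smc2 at 2.52 ± 0.32 and Ncapg at 7.03 ± 0.57. Of the kinesin motors, 17 rose and 2 fell among 39 tested, where Kif20a, a motor of cell cleavage, differed by 5.86 ± 0.80 and Kifc2 by -4.38 ± 1.13. Called in both measures without overlap were 15 Cenp rises, 10 condensin and cohesin rises, and 11 kinesin rises and 1 kinesin fall.

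Of the GIMAP GTPases, known for lymphocyte survival, 0 rose and 4 fell among 8 tested, with Gimap1 at -1.35 ± 0.29 and Gimap5 at -1.43 ± 0.29. Of the Krüppel-like factors, 0 rose and 4 fell among 14 tested, Klf7 at -1.69 ± 0.40. Of the regulators of G protein signalling, 6 rose and 1 fell among 15 tested (median 2.49), and Rgs14 differed by -1.36 ± 0.36 where Rgs13, Rgs2 and Rgs10 rose. Of the dual specificity phosphatases 2 rose and 3 fell among 16 tested: Dusp10 differed by 2.16 ± 0.38 and Dusp3 by -2.73 ± 0.40. Of the interferon-induced IFIT and OAS genes 1 rose and 2 fell among 13 tested, with Oasl1 at -3.04 ± 0.80. Of the interleukin receptors 2 rose and 6 fell among 31 tested, with Il27ra at -2.79 ± 0.52, and of the Fc receptor-like genes 0 rose and 1 fell among 4 tested. In both measures without overlap, 3 rises and 1 fall held for regulators of G protein signalling, and 2 and 2 for the phosphatases. Falls that held numbered 2 for GIMAP, 2 for Krüppel-like, 2 for IFIT and OAS, 4 for interleukin receptor and 0 for Fc receptor-like genes. Rises that held numbered 0 in each of these.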
